A study of Mus musculus with 2 samples.

Results

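The genes of the IL-17 and IL-22 program were followed through the cell classes of the mouse omentum, an apron of abdominal fat that is rich in small immune cell aggregates. The 9 genes are the cytokines Il17a, Il17f and Il22, the receptors Il23r, Il1r1 and Ccr6, the transcription factor Sox13, and the scavenger receptors Scart1 and Scart2. They were taken by name from the 19960 genes of the deposited tables. Of the 9, 8 are listed by symbol and Il23r only by its Ensembl identifier. The series holds 2 single-cell RNA libraries. The mice of 1 were wild type (WT) and those of the other carried Postn-DTR, in which the diphtheria toxin receptor sits in the Postn locus and is meant to make Postn-expressing stromal cells sensitive to diphtheria toxin (DT). Both groups received DT and both were taken 5 days later, so the toxin itself was shared and the receptor allele differed. Each library pools several mice of the C57BL/6 background without a sort. With 1 library a group there is no replicate check, no test between groups was possible, and every interval below covers counting error only.

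IL-17A and IL-17F are closely related secreted cytokines that act on stromal, epithelial and myeloid cells through a receptor made of IL-17RA and IL-17RC, and call in neutrophils. IL-22 acts through IL-22RA1 and IL-10RB, of which the first is found on non-haematopoietic cells such as epithelium. Lymphocytes that make them are driven by IL-23 and IL-1β. In adipose and barrier tissues these producers include γδ T cells with the V segments Trgv6 or Trgv4, lymphoid tissue inducer (LTi) cells, which are innate lymphocytes without a T cell receptor, and Th17 cells among CD4 T cells.

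All 9 are protein-coding genes, placed here on GRCm38 with the GENCODE vM21 annotation. Il17a (chromosome 1, 20730905 to 20734496, plus strand) and Il17f (chromosome 1, 20777146 to 20790617, minus strand) are neighbours with 42649 bases between them. Scart1 (annotated as Cd163l1, chromosome 7, 140218267 to 140231145) and Scart2 (5830411N06Rik, chromosome 7, 140247284 to 140300736) lie 16138 bases apart, both on the plus strand. Il22 is on chromosome 10 (118204942 to 118210047), Il23r on chromosome 6 (67422932 to 67491855), Ccr6 on chromosome 17 (8236043 to 8257141), and Il1r1 (40225080 to 40317257) and Sox13 (133382303 to 133424377) on chromosome 1. The transcript of Iltifb, a copy of Il22, matched that of Il22 at 97.4% of 1110 aligned bases, so reads from such stretches could not be assigned to either gene. Iltifb itself gave 5 UMIs, all in the WT library.

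The upstream sequences of the 3 cytokine genes and of Il23r are shown because these 4 genes carry the comparison between the γδ T cell and LTi sources below. Each is the 250 bases before the RefSeq start site (GRCm38.p6), written 5′ to 3′ on the strand of the gene, with AGGTCA or its reverse complement TGACCT, the core of the motif bound by many nuclear receptors, in capitals.
Il17a, chr1:20730655-20730904, plus strand: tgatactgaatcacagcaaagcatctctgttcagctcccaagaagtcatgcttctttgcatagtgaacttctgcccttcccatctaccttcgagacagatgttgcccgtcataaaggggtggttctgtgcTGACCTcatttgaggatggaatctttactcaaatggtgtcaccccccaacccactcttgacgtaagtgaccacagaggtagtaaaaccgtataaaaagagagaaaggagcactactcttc
Il17f, chr1:20784271-20784520, minus strand: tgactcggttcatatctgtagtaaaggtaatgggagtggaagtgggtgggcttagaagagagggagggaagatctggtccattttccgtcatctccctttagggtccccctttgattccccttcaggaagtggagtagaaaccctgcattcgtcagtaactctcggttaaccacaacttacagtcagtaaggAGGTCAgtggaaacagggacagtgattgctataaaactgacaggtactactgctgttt
Il22, chr10:118204714-118204963, plus strand: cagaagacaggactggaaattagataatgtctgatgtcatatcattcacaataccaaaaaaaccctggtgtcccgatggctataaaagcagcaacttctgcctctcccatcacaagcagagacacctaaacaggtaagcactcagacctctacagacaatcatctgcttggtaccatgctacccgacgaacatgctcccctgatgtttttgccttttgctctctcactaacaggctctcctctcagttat
Il23r, chr6:67491856-67492105, minus strand: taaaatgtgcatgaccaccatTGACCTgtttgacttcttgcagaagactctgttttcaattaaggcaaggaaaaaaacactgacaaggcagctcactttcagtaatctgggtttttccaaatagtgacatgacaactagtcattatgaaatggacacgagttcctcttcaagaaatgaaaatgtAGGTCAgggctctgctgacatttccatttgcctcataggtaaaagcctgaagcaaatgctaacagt
The motif began 120 bases before the start of Il17a and 58 bases before that of Il17f. Il23r held it at 229 and at 66 bases before the start, and the window of Il22 held no copy. Of the 13 upstream windows that RefSeq lists for the 9 members, 5 held the motif on either strand, against 14.0% of all 32851 windows of this length. A match says nothing about binding in these cells.

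The tables hold 8686 WT and 5736 Postn-DTR barcodes, of which 8654 and 5727 passed the limits, with 80152095 and 81011104 UMIs (unique molecular identifiers, 1 for each captured transcript). Of the barcode sequences, 65 occur in both libraries. Classes of cells were built without the 9 members and without V, D and J segments, and are called "-like" because they rest on marker genes. γδ T-like cells, 479 of the WT library and 72 of the Postn-DTR library, met all 7 of their markers, with Cd3e UMIs in 96.9% of the WT cells and Trdc UMIs in 62.6%. The class also held αβ T cell receptor transcripts, with Trac UMIs in 33.8% of its WT cells. LTi-like cells (55 and 49) met all 7 of theirs, had no Cd3e or Trdc UMI in either library, and carried Cd4 UMIs in 67.3% and 53.1% of cells. Immunoglobulin RNA, which T cells do not make, moved with the library, since 44.5% of the WT and 84.7% of the Postn-DTR γδ T-like cells held an Ighm UMI and plasma-like cells were 7.25% and 39.2% of leukocytes. Its part in the differences below was not tested.

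Most of the program was found in 2 classes. γδ T-like cells held Il17a, Sox13, Scart1 and Scart2, LTi-like cells held Il22 and the highest Ccr6, and both shared Il23r and Il1r1. A level below is the mean over the cells of a class of UMIs per 10000 UMIs of the cell. At least 1 member was detected in 92.9% of the γδ T-like cells of WT and 88.9% of those of Postn-DTR, and in 87.3% and 93.9% of the LTi-like cells. Among other CD4 T-like cells, a class apart from the naive CD4 T-like and Treg-like ones, this was 9.5% and 5.47%. Cd4 UMIs were in 59.1% and 50.8% of the cells of that class, and Foxp3 UMIs in 8.53% and 11.7%. In plasma-like cells, at a far greater depth, 4.82% and 2.37% held a member, and in B2 B-like cells, which carry Ccr6, 44.8% and 27.1% did.

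**Figure D1:**
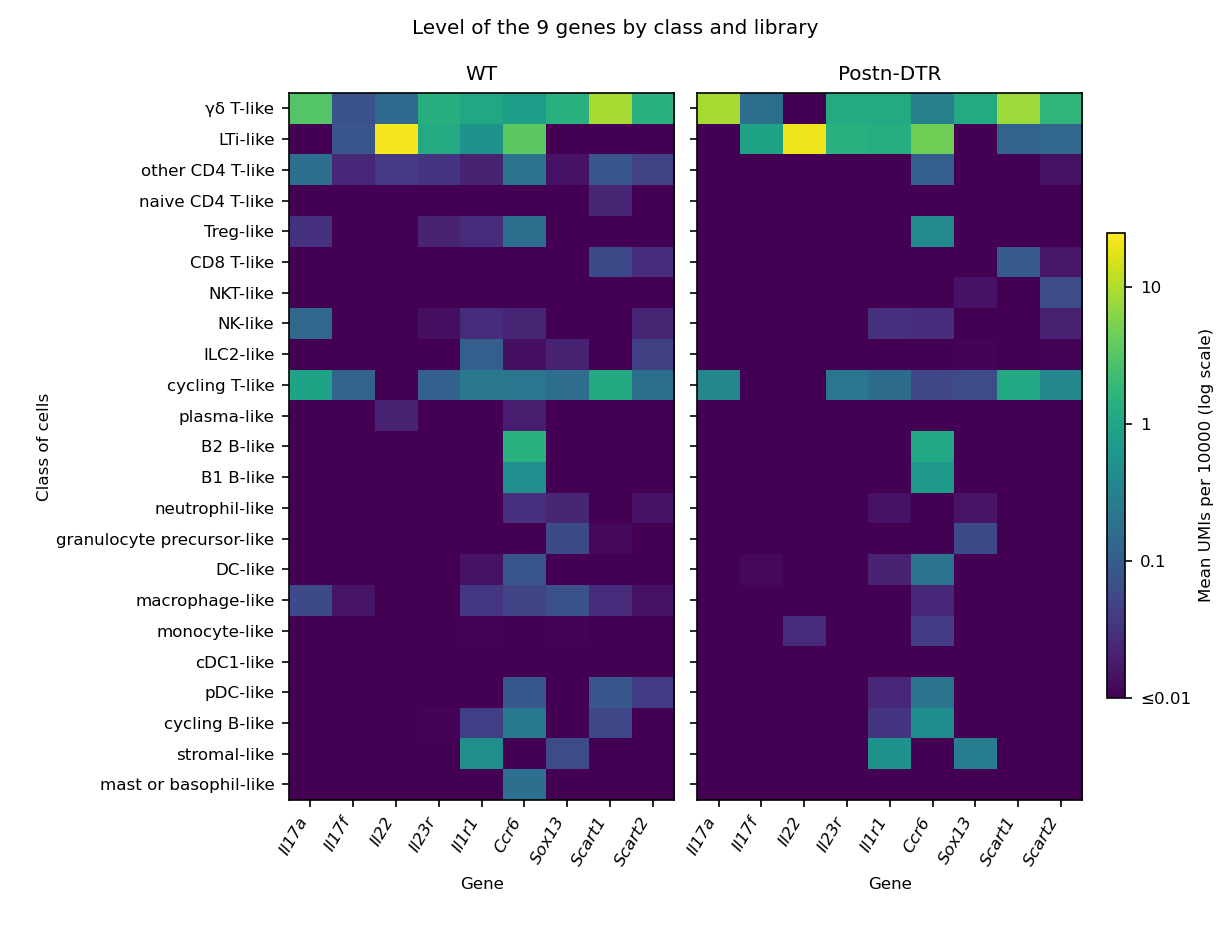
Colour shows the level (mean UMIs per 10000, log scale, values at or under 0.01 in the darkest colour) of each of the 9 genes (columns) in each class with at least 10 cells per library (rows), for WT (left) and Postn-DTR (right). Il22 is brightest in LTi-like cells (22.4 and 20.3), Scart1 and Il17a in γδ T-like cells, and B1 and B2 B-like cells show mainly Ccr6.

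Il17a, the founding cytokine of the family, came mainly from γδ T-like cells. They held 809 of 1041 Il17a UMIs in WT (77.7%, 95% exact binomial interval 75.1 to 80.2) and 376 of 408 in Postn-DTR (92.2%, 89.1 to 94.6). Within this class its level rose from 3.06 in WT to 9.05 in Postn-DTR, which is 1.56 on the log2 scale. The summed UMIs gave 1.66 (1.48 to 1.84). Taken over all leukocytes, Il17a was instead lower in Postn-DTR, at 0.117 against 0.206 (log2 ratio -0.82). Summed UMIs of all leukocytes gave -1.38 (-1.55 to -1.21). The rise was thus per γδ T-like cell, and this class was a smaller share of the Postn-DTR leukocytes. The higher level within γδ T-like cells went with more cells carrying the transcript and with more UMIs in each. Of the WT cells 94 of 479 carried an Il17a UMI (19.6%, 16.2 to 23.5), and of the Postn-DTR cells 25 of 72 did (34.7%, 23.9 to 46.9). With every cell thinned to 1000 UMIs, which left out no cell, the shares were 10.6% (8.03 to 13.8) and 25% (15.5 to 36.6). Cells with the transcript held a median of 4 UMIs in WT and 7 in Postn-DTR, and the highest cell held 71 in both. The 10 highest cells made up 40.9% of the UMIs of the class in WT and 83% in Postn-DTR. The interval of the summed ratio does not cover this clumping. B2 B-like cells, which should lack Il17a, gave a UMI in 0.136% of WT cells and in 0 of 425 Postn-DTR cells, which allows up to 0.706%, at median depths of 4383 and 3206 UMIs against 4930 and 4869 in γδ T-like cells.

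**Figure D2:**
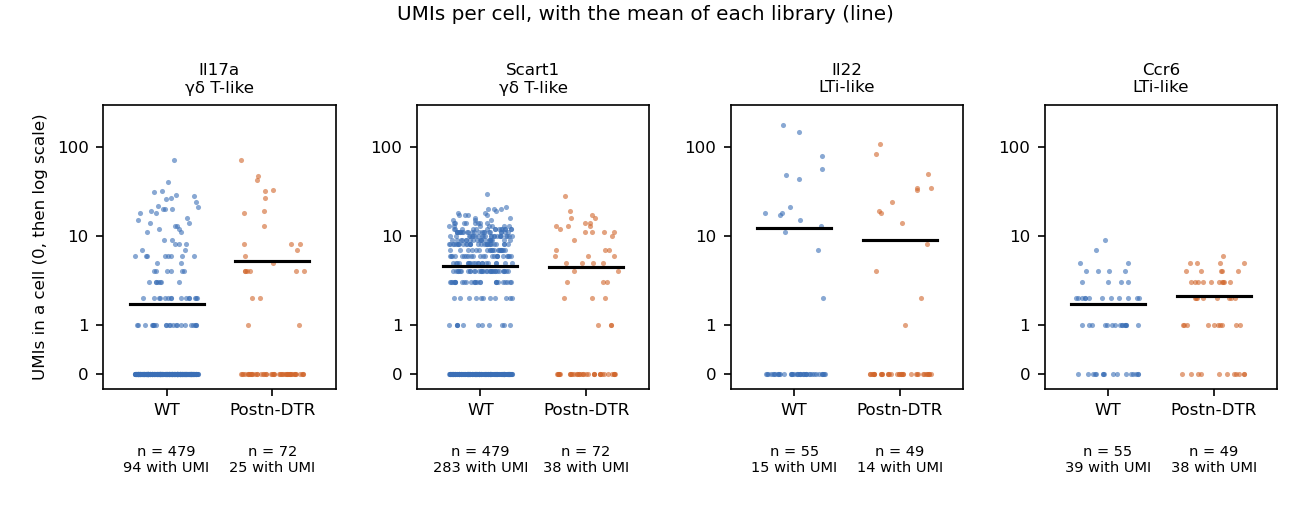
Each point is 1 cell and its height the UMIs of the gene in that cell (0, then a log scale), for Il17a and Scart1 in γδ T-like cells and Il22 and Ccr6 in LTi-like cells, WT in blue and Postn-DTR in orange, with the mean as a line. Il17a and Il22 are at 0 in most cells and reach 71 and 179 UMIs in a few, whereas Ccr6 is spread over 39 of 55 and 38 of 49 LTi-like cells.

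No Il17a UMI was found in LTi-like cells, in 0 of 55 cells of WT and 0 of 49 of Postn-DTR, which allows shares of up to 5.45% and 6.12%. Against a floor of 3 UMIs in a library, the γδ T-like level was at least 28.2-fold higher in WT and at least 70.1-fold higher in Postn-DTR. Other CD4 T-like cells of WT held 98 Il17a UMIs in 12 of 832 cells (1.44%, 0.747 to 2.51). Of these 12 cells, 9 had a Cd4 UMI, 6 had a Trac UMI without a Trdc UMI, and 3 had a Trdc UMI. Their median depth was 9368.5 UMIs against 4072.5 in the other cells of the class, and 2 of the 12 were called doublets. In Postn-DTR 0 of 128 such cells held an Il17a UMI, which allows up to 2.34% of cells, above the WT share of 1.44%. A lower share of cells is thus not shown. The floor puts the summed level at least 4.17-fold lower, but this bound counts UMIs that were clumped in the 12 WT cells. Cycling T-like cells, which met γδ T and CD8 T markers alike and held Trac UMIs in 78.3% and Trdc UMIs in 18.5% of the WT cells, had levels of 0.946 (71 UMIs in 10 of 92 cells) and 0.379 (16 UMIs in 4 of 31 cells).

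Il17f, which pairs with IL-17A or with itself, was sparse everywhere, with 63 UMIs in the WT library and 28 in the Postn-DTR library. γδ T-like cells held 21 in 12 cells of WT and 8 in 5 cells of Postn-DTR, other CD4 T-like cells of WT held 24 in 7 cells, and cycling T-like cells of WT 11 in 6 cells. LTi-like cells went from 2 to 18 UMIs, of which 16 were in 1 Postn-DTR cell. In WT γδ T-like cells, 5 of the 94 cells with an Il17a UMI also held Il17f, against 7 of the other 385. Levels in WT were 0.0698 in γδ T-like, 0.0795 in LTi-like and 0.12 in cycling T-like cells, and the level of 0.949 in LTi-like cells of Postn-DTR rested mostly on the 1 cell with 16 UMIs. γδ T-like cells of Postn-DTR were at 0.167, a log2 ratio of 1.26 and on summed UMIs of 1.37 (-0.01 to 2.61).

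Il22 came from LTi-like cells. They held 679 of 786 UMIs in WT (86.4%, 83.8 to 88.7) and 438 of 459 in Postn-DTR (95.4%, 93.1 to 97.1), although they were only 0.640% and 0.859% of leukocytes. The level was 22.4 in WT against 20.3 in Postn-DTR, with a log2 ratio of -0.15. Summed UMIs gave a ratio of -0.28 (-0.46 to -0.11). This interval does not cover the clumping of UMIs in few cells. The 10 highest cells held 92.9% of the UMIs of the class in WT and 96.6% in Postn-DTR. The transcript was in a minority of cells in both libraries, 15 of 55 (27.3%, 16.1 to 41.0) and 14 of 49 (28.6%, 16.6 to 43.3), which carried medians of 18 and 21.5 UMIs and up to 179 and 110. LTi-like cells with and without Il22 had nearly the same depth in WT (medians of 4809 and 4849.5 UMIs). Of the 15 WT cells, 4 had a Cd3 UMI and none of the 14 in Postn-DTR did. Without the cells with a Cd3 UMI the levels were 22.3 and 20.3.

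γδ T-like cells held 33 Il22 UMIs in 8 WT cells, a level of 0.144, which was 156-fold below that of LTi-like cells. In Postn-DTR they held 0 in 72 cells, which allows up to 4.17% of cells. The summed level in Postn-DTR γδ T-like cells was thus at least 1.62-fold lower than in WT and at least 261-fold lower than in LTi-like cells. The first of these bounds rests on UMIs clumped in the 8 WT cells, with 15 of the 33 in 1 cell, and shows no lower share of cells. Among T cell and innate lymphoid classes, naive CD4 T-like, Treg-like, NKT-like and ILC2-like cells had no Il22 UMI in either library.

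Il23r, the subunit that makes cells answer IL-23, was present at like levels in both classes. In γδ T-like cells it was 1.4 in WT and 1.19 in Postn-DTR, with UMIs in 48.4% and 45.8% of cells. In LTi-like cells it was 1.20 and 1.46, with UMIs in 38.2% and 51.0%. The summed log2 ratio of LTi-like to γδ T-like cells was -0.25 in WT (-0.82 to 0.28), while Postn-DTR had 0.16 (-0.52 to 0.81), and both counting intervals held 0. Between libraries the summed log2 ratio was -0.01 (-0.45 to 0.41) in γδ T-like and 0.39 (-0.35 to 1.14) in LTi-like cells. γδ T-like cells held 78.6% of all Il23r UMIs in WT but 49.5% in Postn-DTR, where they were fewer, and the LTi-like share was 6.93% and 30.8%. NKT-like, naive CD4 T-like and ILC2-like cells had none.

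Il1r1, the signalling receptor for IL-1, followed a similar pattern with stromal cells added. γδ T-like levels were 1.09 and 1.20. LTi-like levels were 0.545 in WT (16 UMIs, 1 in each of 16 cells) and 1.3 in Postn-DTR (29 UMIs in 22 cells), a log2 ratio of 1.26 and of 1.21 on summed UMIs (0.28 to 2.19). Stromal-like cells had 0.483 and 0.558, with 10.4% and 19.1% of the Il1r1 UMIs of their library. Other CD4 T-like cells were at 0.0216 and 0.00989.

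Ccr6, the receptor for CCL20 that brings cells into lymphoid clusters, had most of its UMIs in B cell classes. B2 B-like cells held 48.8% of its UMIs in WT and 28.0% in Postn-DTR, and B1 B-like cells 20.4% and 33.0%. By level LTi-like cells were highest, at 3.47 (93 UMIs in 39 of 55 cells) and 4.64 (102 UMIs in 38 of 49 cells), followed by B2 B-like cells at 1.47 and 1.09. γδ T-like cells had 0.793 in WT (206 UMIs in 131 of 479 cells) and 0.299 in Postn-DTR (15 UMIs in 13 of 72 cells). The γδ T-like log2 ratio of the means was -1.41, and that of the summed UMIs -1.01 (-1.88 to -0.26). Cd79a, a B cell gene, moved with it in this class, from 636 UMIs in 39 cells to 37 UMIs in 3 cells. In the 440 and 69 cells without a Cd79a UMI, a comparison added after the data were seen, Ccr6 was at 0.779 and 0.291, a log2 ratio of -1.42. In LTi-like cells it went the other way, at 0.42 and, on summed UMIs, 0.48 (0.06 to 0.90). Ccr6 in LTi-like cells was accordingly 4.38-fold above γδ T-like cells in WT and 15.5-fold above them in Postn-DTR.

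Sox13, a transcription factor of IL-17-making γδ T cells, was at 1.45 and 1.20 in γδ T-like cells and had no UMI in LTi-like cells of either library. The γδ T-like level was at least 11.8-fold higher than that of LTi-like cells in WT and at least 8.2-fold higher in Postn-DTR. γδ T-like cells held 78.1% of its UMIs in WT and 42.7% in Postn-DTR. Granulocyte precursor-like cells came next, with 8.53% and 34%, at levels of 0.0581 and 0.0567, and stromal-like cells had 0.062 and 0.289 from 3 and 6 UMIs. Between libraries the summed log2 ratio in γδ T-like cells was -0.18 (-0.67 to 0.28).

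Scart1 and Scart2, related surface receptors of the scavenger family carried by γδ T cells, likewise came mainly from γδ T-like cells. These held 89.2% and 80.1% of the Scart1 UMIs and 80.7% and 62.1% of those of Scart2. Scart1 had a level of 8.94 in WT, from 2187 UMIs, and of 8.03 in Postn-DTR, from 323 UMIs, with a summed log2 ratio of 0.01 (-0.17 to 0.18). Scart2 had levels of 1.48 and 1.72 and a summed log2 ratio of 0.02 (-0.40 to 0.41). In WT LTi-like cells neither gene had a UMI, and in Postn-DTR LTi-like cells they had 2 and 3 UMIs, each in 1 cell.

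The neighbouring genes were seldom in the same cell. Of the 479 WT γδ T-like cells, 272 had Scart1 alone, 86 Scart2 alone, 11 both and 110 neither, and of the 72 Postn-DTR cells 37, 15, 1 and 19. The split followed the γ chain V segment, which was used neither to cluster the cells nor to choose the genes. Trgv6 and Trdv4 were, however, among the 7 markers by which the class was named. A Trgv6 UMI was in 254 of the 272 WT cells with Scart1 alone and in 0 of the 86 with Scart2 alone, and in Postn-DTR in 31 of 37 and 0 of 15. Trgv4 without Trgv6 was in 49 of the 86 WT and 10 of the 15 Postn-DTR cells with Scart2 alone, and in 5 of 272 and 3 of 37 with Scart1 alone.

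The last 90 bases of the germline coding sequence of both V segments (GENCODE vM21, both on chromosome 13, plus strand, with Trgv4 at 19184974 to 19185506 and Trgv6 at 19190356 to 19190929) are shown to compare the genes by which the cells were split, and the deposited values do not tell where in the segments the reads lay. Capitals mark bases without an identical partner in the other segment in a global alignment.
Trgv4: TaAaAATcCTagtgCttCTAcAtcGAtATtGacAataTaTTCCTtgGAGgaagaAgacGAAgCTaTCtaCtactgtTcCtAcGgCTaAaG
Trgv6: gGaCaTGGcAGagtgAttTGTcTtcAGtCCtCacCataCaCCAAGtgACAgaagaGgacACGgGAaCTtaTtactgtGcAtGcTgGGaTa
Over the coding sequences, 222 of 374 aligned bases were identical (59.4%).

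Cells with Trgv6 and no Trgv4 UMI (242 in WT, 26 in Postn-DTR) had Scart1 at 15.2 and 15.3, with a UMI in 98.8% and 100% of cells, and Scart2 at 0.0721 and 0. Of them, 98.8% in WT also had a Trdv4 UMI, the δ chain segment that pairs with Trgv6. Cells with Trgv4 and no Trgv6 UMI (93 and 20) had Scart2 at 4.31 and 4.10, with a UMI in 53 of 93 and 10 of 20 cells, and Scart1 at 0.99 and 2.21. A Trac UMI without a Trdc UMI was found in 7 of the 242 and 0 of the 26 Trgv6 cells but in 35 of the 93 and 5 of the 20 Trgv4 cells.

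Il17a followed the Trgv6 side. Its level in Trgv6 cells was 5.01 in WT (674 UMIs in 70 of 242 cells) and 19.3 in Postn-DTR (293 UMIs in 15 of 26 cells). In Trgv4 cells it was 1.24 (69 UMIs in 10 of 93 cells) and 3.16 (29 UMIs in 5 of 20 cells). The log2 ratio between libraries was 1.95 in Trgv6 and 1.34 in Trgv4 cells, so the higher Il17a of Postn-DTR was present within both, while the share of the class with a Trgv6 UMI was 54.1% in WT and 43.1% in Postn-DTR. Whether the 2 ratios differ was not tested. Read by Scart receptor, cells with Scart1 alone had Il17a at 4.66 in WT and 16.4 in Postn-DTR, with a UMI in 27.6% and 56.8% of cells. Cells with Scart2 alone had 0.582 and 2.65, with a UMI in 12.8% and 13.3%, the latter 16 UMIs in 2 of 15 cells. Cells with neither receptor went the other way, at 1.25 (61 UMIs in 7 of 110 cells) and 0.347 (9 UMIs in 2 of 19 cells). So did the 11 WT cells and the 1 Postn-DTR cell with both, at 0.997 and 0. Sox13 was at 2.02 and 1.88 in Trgv6 cells against 0.797 and 1.5 in Trgv4 cells. Ccr6 had the opposite order in WT, 0.608 in Trgv6 against 1.08 in Trgv4 cells, and in Postn-DTR both were low, at 0.329 and 0.175 from 6 and 3 UMIs.

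**Figure D3:**
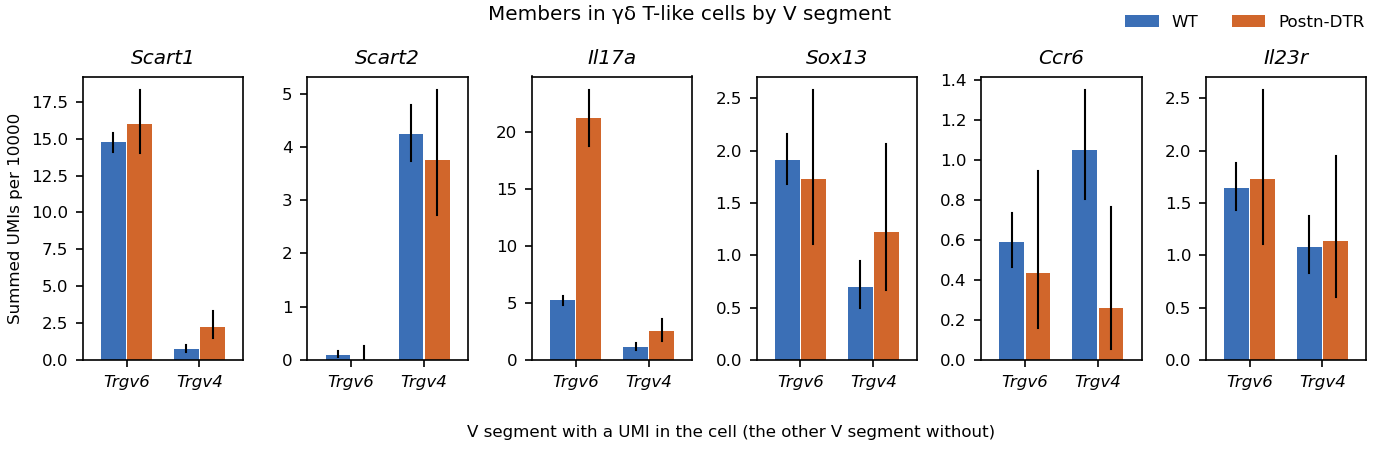
Bars give the summed UMIs per 10000 UMIs of 6 members in γδ T-like cells with a UMI of Trgv6 alone or of Trgv4 alone, WT in blue and Postn-DTR in orange, and lines the exact Poisson 95% intervals of the sums (counting error only). Scart1 is at 14.8 and 16.0 in Trgv6 cells and at 0.746 and 2.27 in Trgv4 cells, Scart2 is the reverse, and Il17a is highest in the Trgv6 cells of Postn-DTR (21.2).

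The members were set beside all genes of the class. In γδ T-like cells 7 members had at least 50 UMIs over both libraries, and the other 2, Il17f and Il22, had 29 and 33. At a limit of 2-fold between the means, 1 of the 7 was higher in Postn-DTR (Il17a), where 2.29% of the 6646 genes tested were, and 1 was lower (Ccr6), where 7.93% were. With summed UMIs scaled by TMM factors Ccr6 was inside the limit and 0 of the 7 were lower. Il17a ranked 27 from the highest ratio among the 6646. The median log2 ratio of the 7 members was -0.15 and that of all genes tested was -0.10. In LTi-like cells 3 members were tested (Il22, Il23r and Ccr6) and none passed 2-fold, where 1.79% of 1617 genes were lower and 4.02% higher. With a minimum of 20 UMIs 5 members were tested there, and 2 were higher (Il1r1 and Il17f), against 5.68% of 3945 genes. In other CD4 T-like cells 2 of 3 tested members, Il17a and Scart1, were lower in Postn-DTR, each at 0 UMIs there, against 4.75% of 7455 genes, and 0 of the 3 were higher, against 2.82%. For Scart1 the floor of 3 UMIs makes this at least 2.38-fold on summed UMIs. Its 56 WT UMIs were clumped in 10 of 832 cells and those of Il17a in 12, so a lower share of cells is not shown. Segments of the γδ T cell receptor moved the same way in this class, with Trdv4 at 56 and 0, Trgv6 at 40 and 0 and Trgv4 at 62 and 1 UMIs, and their part in both values was not tested.

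**Figure D4:**
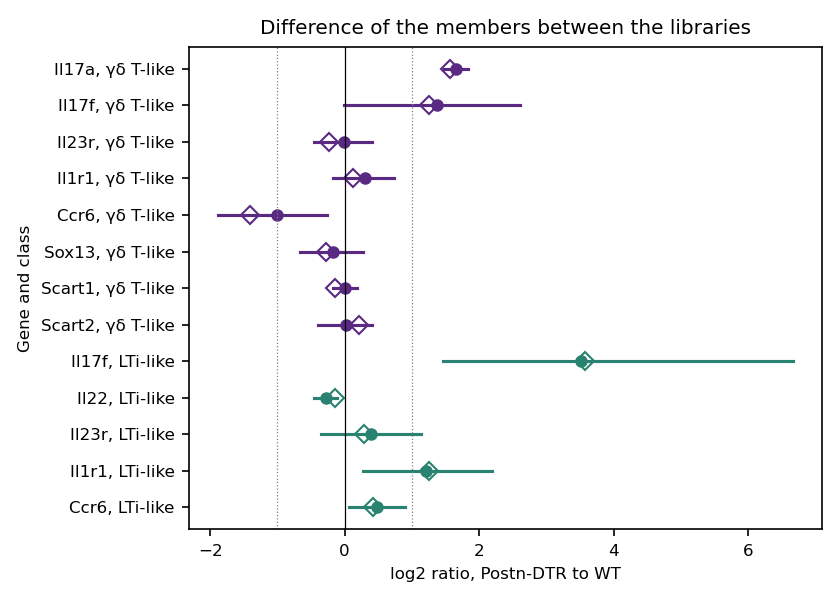
The log2 ratio of Postn-DTR to WT is shown for the members with at least 20 UMIs and a value in both libraries, in γδ T-like (purple) and LTi-like cells (green), as diamonds for the means over cells, and as dots with 95% counting intervals for summed UMIs. Dotted lines mark 2-fold. In γδ T-like cells Il17a and Il17f lie to the right of 2-fold and Ccr6 to the left of it, while Il23r, Il1r1, Sox13, Scart1 and Scart2 lie near 0. In LTi-like cells Il17f and Il1r1 lie to the right of 2-fold. The wide intervals of Il17f rest on 29 UMIs in γδ T-like cells and 20 in LTi-like cells.

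Beyond the members, 77 of the 82 other pathway genes listed by role were in the tables, and 49 of them had at least 50 UMIs in γδ T-like cells. Of these 49, 1 was at least 2-fold higher and 3 were at least 2-fold lower in Postn-DTR, shares close to those of all genes. Maf, a transcription factor of IL-17-making T cells, was at 3.13 and 2.73, Zbtb16, which marks innate-like T cells, at 1.81 and 1.46, and Blk, a kinase gene of B cells and of IL-17-making γδ T cells, at 3.76 and 2.65. Higher in Postn-DTR but under 2-fold were Batf (0.889 and 1.57, log2 ratio 0.82), a factor of T cell activation, Il2ra (2.39 and 4.21, 0.81), the inducible IL-2 receptor chain, Nfkbiz (1.74 and 3.34, 0.94), a mediator of IL-17 and IL-1 responses, and Tmem176b (15.9 and 28.8, 0.86), a membrane protein gene expressed in type 17 lymphocytes.

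Il12rb1, which pairs with IL-23R, had levels of 1.23 and 0.590 and a log2 ratio of -1.06, and on summed UMIs of -0.92 (-1.58 to -0.32). Under 2-fold, Il17re, the receptor for IL-17C, was at 1.33 and 0.768 (log2 ratio -0.79), and Il18r1, a receptor for IL-18, at 3.49 and 2.25 (-0.64). Ifng, the main cytokine of type I responses, went from 54 to 0 UMIs, at least 2.65-fold lower. The third gene past 2-fold was Cxcl2, a neutrophil-attracting chemokine (0.614 and 0.264). The gene past 2-fold in the other direction was S100a9 (0.159 and 0.564, 37 and 16 UMIs), a neutrophil gene at 1527 and 1048 in neutrophil-like cells, which were 2.77% of WT and 13% of Postn-DTR leukocytes. The part of neutrophil RNA in this value was not tested.

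**Figure D5:**
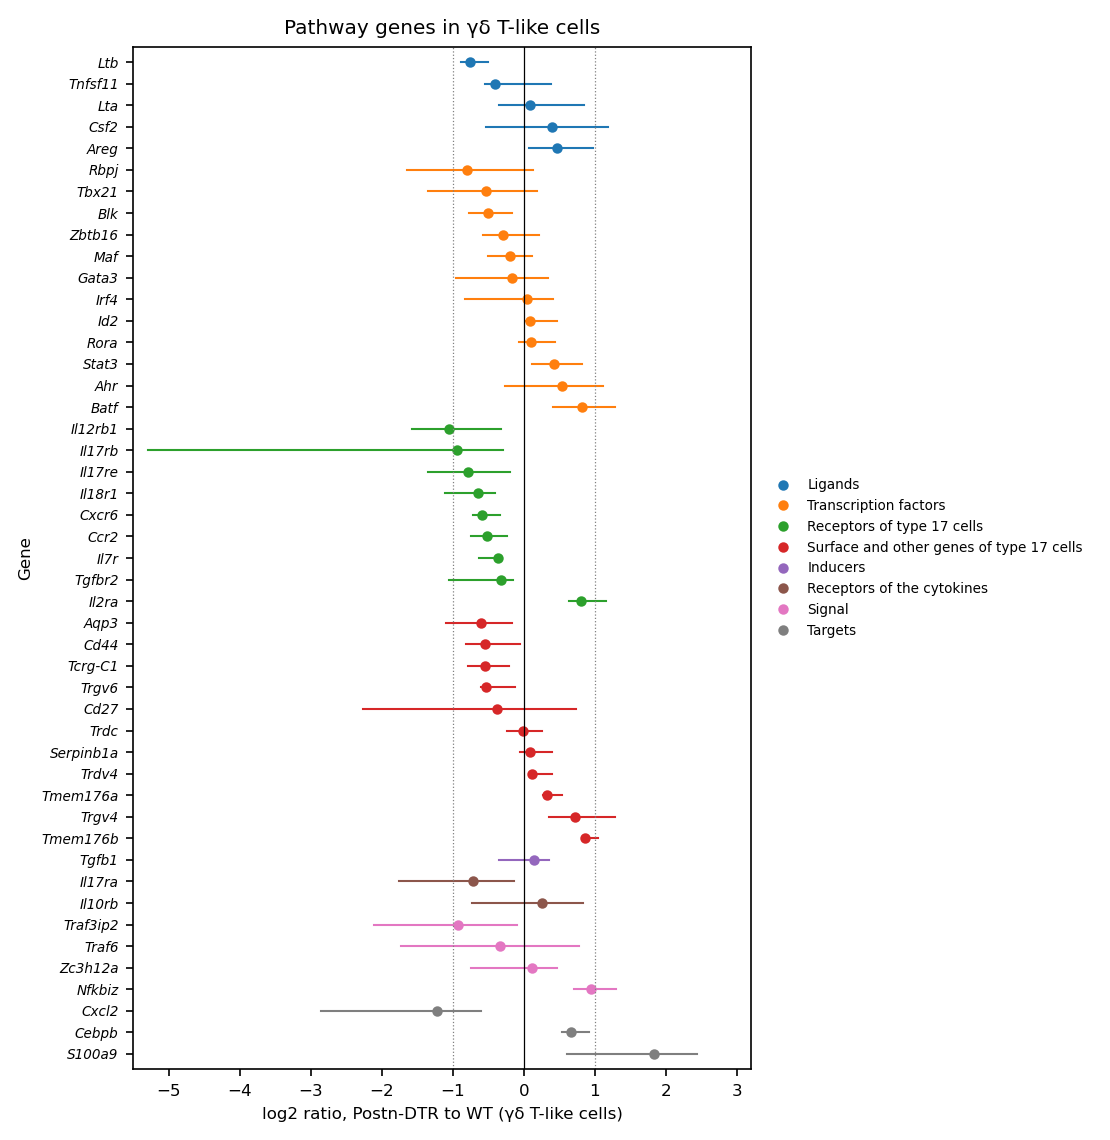
Each row is a pathway gene with at least 50 UMIs in γδ T-like cells and a value in both libraries, coloured by role, with 1 gene not shown. Dots give the log2 ratio of Postn-DTR to WT of the means over cells, lines the 95% counting interval of the ratio of summed UMIs, and dotted lines 2-fold. Il12rb1 and Cxcl2 lie beyond 2-fold on the left and S100a9 on the right.

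In LTi-like cells 27 pathway genes were tested, of which 1, Il18r1, was at least 2-fold lower (2.94 and 1.32) and 0 were higher, against 1.79% and 4.02% of all genes. On summed UMIs 2 were lower, and with TMM scaling 3. The lymphotoxin genes were near that limit, with Lta at 3.57 and 1.92 (log2 ratio -0.90) and Ltb at 19.5 and 9.76, just inside it. Through them LTi cells act on mesenchymal cells in lymph node development, a step that milky spots do not require according to the study. Tnfsf11, the gene of RANKL, was at 2.01 and 3.67 (0.87). Cebpb, a shared inflammatory factor, was at 17 and 30.4 (0.83). The lower Ltb was not particular to LTi-like cells. ILC2-like cells had it at 13.7 and 4.61, γδ T-like cells at 11.2 and 6.62, and other CD4 T-like cells at 8.27 and 5.06. Lta was lower in B2 B-like cells (0.489 and 0.262) but not in γδ T-like (0.542 and 0.572) or other CD4 T-like cells (0.159 and 0.165).

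The cytokines that drive the program came from myeloid classes. Il1b was at 20.1 in WT and 23.8 in Postn-DTR in DC-like cells, at 17 and 15.2 in monocyte-like cells, and at 19.0 and 48.7 in neutrophil-like cells (log2 ratio 1.36, or 2.15 on summed UMIs). Neutrophil-like cells were made of 2 clusters in unlike parts, since 1 of them held 55 of the 238 WT but 477 of the 740 Postn-DTR cells. Il23a, the specific chain of IL-23, was at the limit of detection: DC-like cells of WT had 2 UMIs and those of Postn-DTR 19, all in 1 cell, and neutrophil-like cells 1 and 17, the 17 in 11 cells. Il12b, the chain that IL-23 shares with IL-12, had 97 and 34 UMIs in DC-like cells (levels of 0.230 and 0.261) and 39 and 21 UMIs in cDC1-like cells (0.113 and 0.728), the 21 in 1 cell. Il6 was highest in the few mast or basophil-like cells (4.98 and 3.06) and was 2.01 and 2.54 in macrophage-like cells.

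On the receiving side, Il17ra was broad, at 2.19 and 1.75 in monocyte-like and 1.48 and 1.85 in neutrophil-like cells. Il17rc, the gene of its partner chain, was highest in stromal-like cells at 0.508 (48 UMIs in 28 cells) and 0.334 (18 UMIs in 10 cells). Il22ra1 had 4 UMIs in WT stromal-like cells and none in those of Postn-DTR. Il22ra2, a soluble decoy for IL-22, had 11 and 16 UMIs in granulocyte precursor-like cells. Among genes induced by IL-17 in other tissues, Cxcl1 was at 0.951 (78 UMIs in 11 of 59 cells) and 3.28 (163 UMIs in 10 of 25 cells) in stromal-like cells, a log2 ratio of 1.79, and at 1.34 and 1.77 in macrophage-like cells. Saa3, an acute-phase gene, was at 18.3 and 130.0 in macrophage-like cells. The make-up of that class differed between the libraries. In a finer clustering (resolution 1.6), a macrophage-like cluster with Gata6 and Timd4 held 18 WT and 144 Postn-DTR cells, and the other held 102 and 181. The part of this in the Saa3 value, and any action of IL-17 on these genes, was not tested.

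The genes most like the members were sought over 46 points, the 23 classes in 2 libraries, by Pearson correlation of log2(level + 0.01). The classes are not independent of each other, share their libraries and differ in depth, so the coefficients are descriptions. With a minimum of 20 in place of 100 UMIs a gene, 4 of the 5 genes stayed for Il17a and for Il23r but 1 of 5 for Il22 and for Il17f. For Il17a the genes were Gm9961 (r = 0.92), Trgv6 (0.879), Trdv5 (0.861), Actn2 (0.809) and Ly6g5b (0.796). For Il23r they included Kcnk1 (0.956), Lingo4 (0.93), Serinc2 (0.925) and Arnt2 (0.913), which were also among the 5 for Il17f. For Il22 they were Fam184b (0.94), Serinc2 (0.869), Cx3cl1 (0.867), Chad (0.844) and Cntn1 (0.842). Within the members Il17a was closest to Scart1 (0.875) and Scart2 (0.835) and far from Il22 (0.066). Il22 was closest to Il17f (0.739) and Il23r (0.722).

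The producers themselves changed in share in different ways. γδ T-like cells were 5.57% of leukocytes in WT (5.10 to 6.08) and 1.26% in Postn-DTR (0.989 to 1.59), a ratio of 0.227 (approximate Katz interval 0.177 to 0.290). LTi-like cells were 0.640% (0.482 to 0.832) and 0.859% (0.636 to 1.13), a ratio of 1.34 (0.915 to 1.97). Plasma-like and neutrophil-like cells took a larger part of the Postn-DTR library, and without them the ratios were 0.426 and 2.52. Shares do not give cell numbers in the tissue, so by themselves they cannot tell fewer γδ T cells from more of the other cells. The study did count omental leukocytes 5 days after DT and reports a lower total in Postn-DTR mice. It gives no count of γδ T or LTi cells. If the total was also lower in the pooled mice, the lower share means fewer γδ T-like cells. For LTi-like cells, whose share was not lower, the direction of the number stays unknown.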

How the data were processed

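Droplet libraries of mouse omentum, 1 for each genotype, were made per the labels with a 5′ reagent kit, while the study's methods name a 3′ kit. The submitters' processing notes name Cell Ranger 6.0.0 and mm10. In the deposited tables the authors give each value as a natural log, ln(1 + UMIs per 10000 UMIs of the cell), to 3 decimals. They were taken back to the linear scale, and whole UMIs were recovered within 0.1 UMI for 99.964% (WT) and 99.902% (Postn-DTR) of values. Levels are means over cells, with summed UMIs beside them.

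With the limits that the study used (200 to 7500 genes, mitochondrial UMIs up to 25%), cells were merged without batch correction (Seurat 5.3.0, sctransform 0.4.2, R 4.3.3). Of 3000 variable features, 2747 were used, after V, D and J segments and the members among them were taken out. Louvain clusters came from 30 components at resolution 0.8. A cluster was named from marker lists where at least 3 markers were raised 2-fold and found in 10% of cells. 1 cluster of shallow cells and 1 of doublets stayed unnamed. Doublets were called with Scrublet (scanpy 1.11.5) at a score limit of 0.25 in both libraries (135 and 103 cells), since the automatic limit marked 2 WT cells, and were kept except in an alternative.

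A ratio was called at 2-fold for genes that reached 50 UMIs in the class with both libraries added. Intervals are 95% exact Poisson, exact Clopper-Pearson or conditional binomial, and the floor is 3 UMIs. The ratio code was tested on simulated data. The named genes are the 9 members, the pathway list by role (1 of its genes is not reported here), and the 5 genes most like Il17a, Il17f, Il23r and Il22. Members and lists were chosen with earlier results of these data known. The splits by V segment and by Scart receptor and the calls in LTi-like cells were added after the data were seen.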

Additional observations from a re-analysis of the deposited data

How the results depend on the processing

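Limits are set by depth and by the single library a group: 72 γδ T-like and 49 LTi-like Postn-DTR cells carry the comparisons, and intervals say nothing about mice. No paired analysis was possible because each group has 1 library. The log2 ratio of Il17a in γδ T-like cells was 1.56, 1.84 with gates on UMIs in place of clusters, and 1.35 without the highest cell of each library. After the data were seen it was also computed in Trgv6 cells (1.95) and Trgv4 cells (1.34). The log2 ratio of Il22 in LTi-like cells was -0.15, and -0.72 with gates. The share of WT γδ T-like cells with an Il17a UMI rose from 10.6% at 1000 UMIs to 15.1% at 2000 and 19.6% unthinned. With each cell weighing the same, γδ T-like cells held 82.6% and 97.4% of Il17a, and LTi-like cells 91.6% and 99.1% of Il22. Without doublets γδ T-like cells held 95.7% of the Il17a of Postn-DTR. The ratio of shares without plasma-like and neutrophil-like cells was 0.426 for γδ T-like and 2.52 for LTi-like cells. In γδ T-like cells, a minimum of 20 UMIs gave 2 members lower and 2 higher, and TMM scaling gave 0 lower, since Ccr6 then fell inside 2-fold. Pathway genes higher were 2 at a minimum of 20 UMIs, 0 at 100, 2 as CPM and 2 with TMM scaling. For the values named here 51 other settings left the value within its counting interval or, for counts of genes, within a set fold. A further 21 settings moved the value beyond that. Of 13 log2 ratios of members between libraries, 3 changed sign, all under 2-fold: Il23r (-0.23) and Scart1 (-0.15) in γδ T-like cells with gates, to 0.09 and 0.01, Scart1 also on summed UMIs, to 0.01, and Il23r in LTi-like cells (0.29) with gates, to -0.40. The cause of each move was not tested.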

Other observations

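Cytokine UMIs also turned up in single cells of other classes. In WT, 1 NK-like cell held 42 Il17a UMIs together with Cd3, Cd4 and Trac UMIs and no Trdc UMI, and 1 macrophage-like cell held 11 together with a Cd3 UMI. In Postn-DTR, 3 plasma-like cells held 13 Il17a UMIs, all 3 had Trdc UMIs, and 2 of them were called doublets. In WT, 2 plasma-like cells held 59 Il22 UMIs, and neither was called a doublet. These values were chosen after they were seen.

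γδ T-like cells without a Trgv6 or Trgv4 UMI (127 in WT, 21 in Postn-DTR) had Il17a at 0.813 and 1.24, Scart2 at 2.28 and 2.0 and Scart1 at 1.93 and 2.70. Of them, 49 and 10 had a Trac UMI and no Trdc UMI. Cells with both V segments (17 and 5) had Scart1 at 16.1 and 15.8, with a UMI in every such cell, and no Scart2 UMI.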
